A study of Mus musculus with 9 samples.

Results

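The annexins are a family of proteins that bind acidic membrane phospholipids when calcium rises. Their messenger RNAs, with that of the annexin partner S100a10, were followed through cultured mouse lung carcinoma cells. The 10 members were taken by symbol (Anxa1, Anxa2, Anxa3, Anxa4, Anxa5, Anxa6, Anxa7, Anxa8, Anxa11 and S100a10) out of 15768 genes in the expression table. All 10 were in the table and all 10 passed the filter on low values, Anxa8 only through libraries of SCC2 and LLC1. The set was selected on FPKM values of these same libraries and on their differences between the lines, so the members' levels and differences are given as a description and carry no p-values.

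The 3 groups were SCC2, SCC1 and LLC1, each with 3 libraries of total RNA. LLC1 is the parental Lewis lung carcinoma line, a transplantable mouse tumour line. SCC2 and SCC1 were derived from LLC1 by limiting dilution, so each is a single-cell clone and stands for 1 clone only. All cells were labelled WT, untreated, tumor cells of lung, and were grown in DMEM with fetal bovine serum. The labels do not state whether replicate libraries were grown as separate cultures, so p-values and SDs measure only the spread between these libraries, which may be technical.

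Each annexin has a conserved core of repeats that docks on the inner face of a membrane, and an N-terminal tail that binds other proteins. Anxa2 binds a dimer of S100a10, and this complex gathers plasminogen and its activators at the cell surface. Anxa5 binds exposed phosphatidylserine, Anxa1 is a glucocorticoid-inducible protein that signals through formyl peptide receptors, and several members help to reseal torn plasma membrane. Anxa6 has a duplicated core and is known from work on endosomes and on the recruitment of a Ras GTPase-activating protein to the plasma membrane.

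The promoters of Anxa1, Anxa2 and Anxa5 are shown because these members, with S100a10, had all SCC2 libraries above and all SCC1 libraries below those of LLC1, and had a promoter entry. Each line gives the 250 bases before the RefSeq start of the gene, 5′ to 3′ on the gene's strand, in the GRCm38.p6 build. Capitals mark matches, on either strand, to the TATA box letters TATAAA, the GC box letters GGGCGG or the AP-1 letters TGANTCA. The CCAAT box letters were searched as well and found in none of the stretches. The Anxa1 stretch lies at chr19:20390672-20390921 on the minus strand the Anxa2 stretch at chr9:69453433-69453682 on the plus strand, and the Anxa5 stretch at chr3:36475888-36476137 on the minus strand.
Anxa1: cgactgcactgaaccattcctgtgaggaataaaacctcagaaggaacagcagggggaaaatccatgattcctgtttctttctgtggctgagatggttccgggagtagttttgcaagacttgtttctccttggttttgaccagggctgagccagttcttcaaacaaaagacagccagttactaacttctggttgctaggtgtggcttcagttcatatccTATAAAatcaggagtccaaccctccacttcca
Anxa2: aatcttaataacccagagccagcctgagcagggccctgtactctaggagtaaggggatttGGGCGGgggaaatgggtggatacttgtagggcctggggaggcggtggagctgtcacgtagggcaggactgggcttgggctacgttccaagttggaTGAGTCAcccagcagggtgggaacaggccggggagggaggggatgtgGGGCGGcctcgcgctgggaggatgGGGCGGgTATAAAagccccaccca
Anxa5: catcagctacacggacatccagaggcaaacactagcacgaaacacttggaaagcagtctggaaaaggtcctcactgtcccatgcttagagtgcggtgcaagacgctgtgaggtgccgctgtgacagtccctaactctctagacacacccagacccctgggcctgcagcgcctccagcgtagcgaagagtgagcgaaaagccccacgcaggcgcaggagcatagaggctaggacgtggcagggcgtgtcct

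The Anxa1 and Anxa2 stretches each held a TATAAA match, starting 32 bases before the RefSeq start of Anxa1 and 17 bases before that of Anxa2. The gene positions given below are from GENCODE vM21 and begin farther upstream than these RefSeq starts. The whole Anxa1 stretch and the TATAAA match of Anxa2 lie inside those GENCODE spans. The Anxa5 stretch matched none of the motifs searched. Among 32851 mouse promoters of the same length, 12.4% held TATAAA. The Anxa2 stretch had 3 GGGCGG matches, a motif found in 32.7% of all promoters, and 1 TGANTCA match, found in 6.75%. It held 9 CpG dinucleotides, the Anxa1 stretch 2 and the Anxa5 stretch 13, against a median of 6 over all promoters. No motif overlapped another, and a match is a description of letters only. RefSeq promoter entries were found for 7 of the 10 members.

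The libraries held 17094808 (LLC1 replicate 3) to 19398657 (SCC1 replicate 1) fragments assigned to genes, worked back from the deposited values. FPKM counts fragments scaled to gene length and library size, so it is a relative level. A gene was called changed at a limma Benjamini-Hochberg adjusted p under 0.05. Of 10519 genes tested, 67.6% were called in SCC2 against LLC1, 70.1% in SCC1 against LLC1 and 76.3% in SCC2 against SCC1. Differences of 2-fold or more were less common, at 3.72%, 3.79% and 6.34% of genes in the same order. The first 2 comparisons share the LLC1 libraries. Epithelial markers, 5 of 6 in the table and mostly Krt8 and Krt18 by level, summed to 232 to 233 FPKM in SCC2, 447 to 457 FPKM in SCC1 and 333 to 342 FPKM in LLC1, while Cdh1 was near 0. Lung epithelial markers, 5 of 8 in the table, summed to 6.70 to 7.57 FPKM in SCC2, 1.84 to 2.32 FPKM in SCC1 and 4.57 to 4.88 FPKM in LLC1, mostly Hopx, with Nkx2-1 and Sftpc near 0. The 4 endothelial markers in the table, of 5, summed to at most 0.0960 FPKM in any library. Among macrophage and leukocyte markers, 5 of 10 were in the table. Their summed level, mostly Cd68 and Cd14, was 18.6 to 19.1 FPKM in SCC2, 26.2 to 29.9 FPKM in SCC1 and 15.6 to 17.1 FPKM in LLC1. The mean of the defining macrophage marker Csf1r was at most 0.0182 FPKM in any line. The 7 fibroblast markers, all in the table, summed to 7.19 to 7.83 FPKM in SCC2, 6.42 to 6.64 FPKM in SCC1 and 11.1 to 12.2 FPKM in LLC1. The part of these markers in the results below was not tested. In such bulk RNA, fewer cells of a kind and less RNA per cell cannot be told apart.

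Anxa1, Anxa2, Anxa5 and S100a10 made up most annexin message in every line, and all 4 were lowest in SCC1. Together the 10 members summed to 2740 ± 16.9 FPKM in SCC2, 1989 ± 6.44 FPKM in SCC1 and 2362 ± 10.8 FPKM in LLC1 (SD, n = 3 each). These sums were 0.714%, 0.508% and 0.609% of all FPKM in the same order of lines. The 4 abundant genes supplied 90.4% of the sum in SCC2, 87.7% in SCC1 and 89.8% in LLC1. The same members thus took a larger share of all message in SCC2 and a smaller one in SCC1 than in LLC1.

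**Figure D1:**
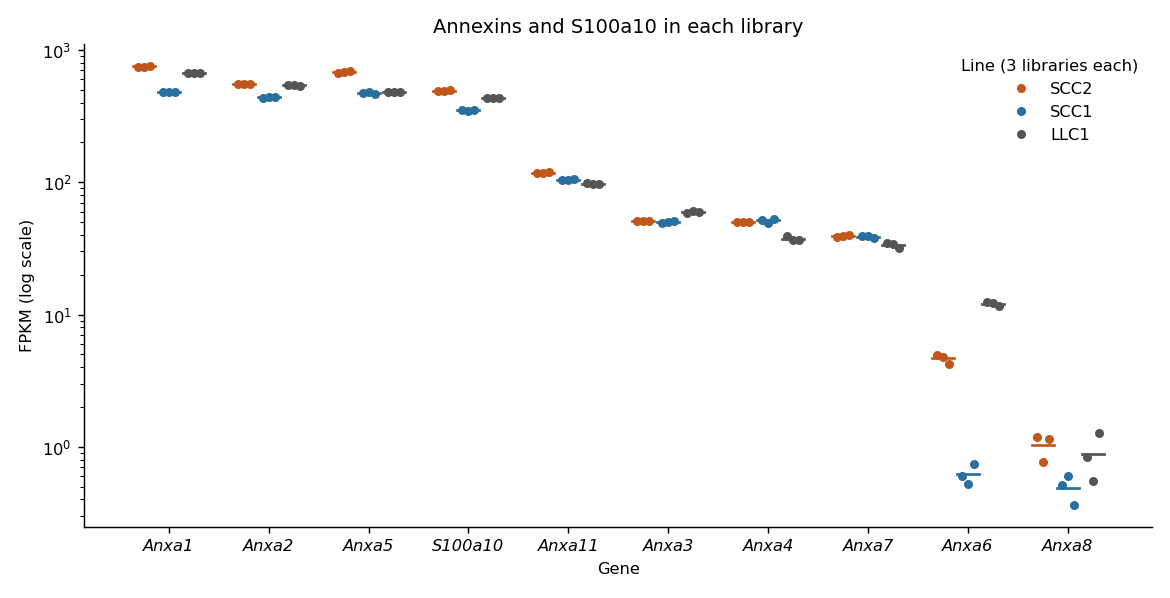
FPKM of each member (log10 axis) in every library, grouped as SCC2, SCC1 and LLC1; each point is 1 library and each line a mean. Anxa6 shows the widest separation, at 0.525 to 0.738 FPKM in SCC1 below 4.24 to 4.97 FPKM in SCC2 and 11.5 to 12.4 FPKM in LLC1, while Anxa8 points of SCC2 and LLC1 overlap.

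Anxa1, an inhibitor of inflammation also known as lipocortin, was the most abundant member in all 3 lines. It had 746, 747 and 757 FPKM in SCC2, 480.0, 481 and 485 FPKM in SCC1, and 666, 673 and 665 FPKM in LLC1. The 3 lines did not overlap, and SCC1 was the lowest. On the log2(FPKM + 1) scale, Anxa1 differed from LLC1 by 0.17 ± 0.013 in SCC2 and by -0.47 ± 0.013 in SCC1 (± SE of the limma fit), and SCC2 from SCC1 by 0.64 ± 0.013. The SCC2 difference from LLC1 was 0.06 with the median of chromosome 19 removed and 0.26 with quantile normalization. The gene lies on chromosome 19 of GRCm38, from 20373428 to 20390944 on the minus strand.

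Anxa5, the phosphatidylserine-binding member used to stain dying cells, had 673, 679 and 689.9 FPKM in SCC2. SCC1 had 473, 477 and 466 FPKM, and LLC1 485, 479.8 and 480.2 FPKM. Anxa5 was thus higher in SCC2 than in either other line, by 0.50 ± 0.015 on the log2 scale over LLC1 and by 0.53 ± 0.015 over SCC1. SCC1 and LLC1 lay close together, with a log2 difference of -0.03 ± 0.015, although their libraries did not overlap. Mouse Anxa5 lies on chromosome 3 from 36448923 to 36475894 on the minus strand.

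Anxa2, which links membranes to the actin cytoskeleton, had 557, 555 and 553 FPKM in SCC2, 436, 439 and 444 FPKM in SCC1, and 541, 542 and 533 FPKM in LLC1. The libraries of the 3 lines did not overlap, but SCC2 exceeded LLC1 by only 0.04 ± 0.014 on the log2 scale, while SCC1 was below LLC1 by -0.29 ± 0.014. With the median of chromosome 9 removed, these differences were 0.20 in SCC2 and -0.11 in SCC1. SCC2 was above SCC1 by 0.34 ± 0.014. Its partner S100a10, a small protein of the S100 family that does not need calcium to bind, had 488, 489 and 494 FPKM in SCC2. It had 351, 345 and 353 FPKM in SCC1, and 429.9, 435 and 434 FPKM in LLC1. S100a10 also separated all 3 lines, with log2 differences of 0.18 ± 0.015 in SCC2 and -0.31 ± 0.015 in SCC1 against LLC1, and 0.49 ± 0.015 in SCC2 against SCC1. Anxa2 lies on chromosome 9 from 69453620 to 69491795 on the plus strand and S100a10 on chromosome 3 from 93555080 to 93564643 on the plus strand.

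The balance of the 2 partners differed between lines. The ratio of Anxa2 to S100a10, both in FPKM and so per length, was 1.13 ± 0.0113 in SCC2, 1.26 ± 0.0141 in SCC1 and 1.24 ± 0.0152 in LLC1 (SD, n = 3 each). Its library range was 1.12 to 1.14 in SCC2, below the 1.24 to 1.27 in SCC1 and the 1.23 to 1.26 in LLC1, which overlapped each other. The ratio of Anxa1 to Anxa5 was 1.1 in SCC2, 1.02 in SCC1 and 1.39 in LLC1. The order of the 4 genes was Anxa1, Anxa5, Anxa2 and S100a10 in SCC2 and in SCC1, and Anxa1, Anxa2, Anxa5 and S100a10 in LLC1. No neighbours in these orders overlapped in their library values.

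**Figure D2:**
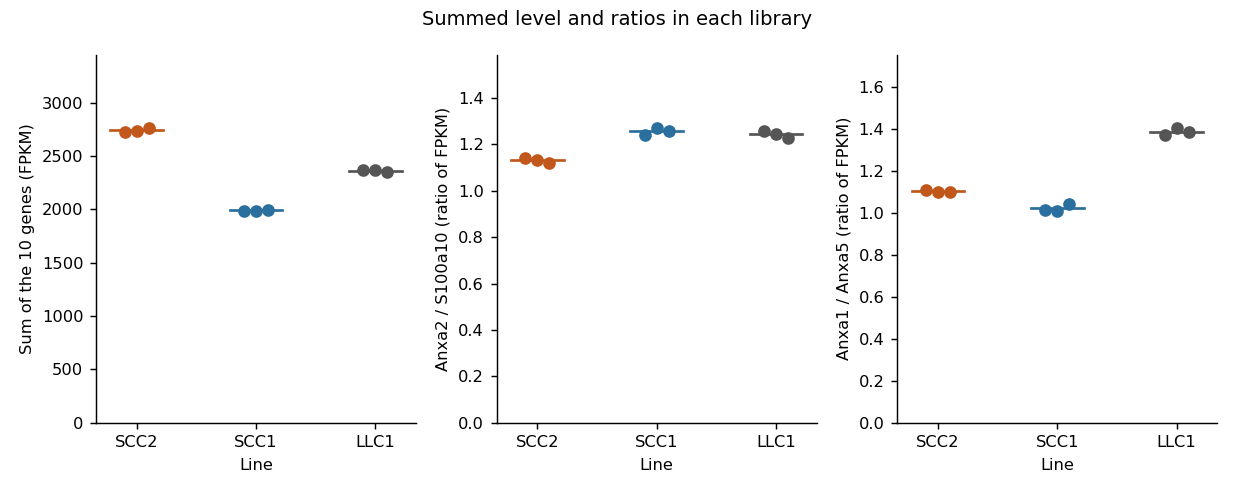
Summed FPKM of the 10 members and the ratios of Anxa2 to S100a10 and of Anxa1 to Anxa5 (linear axes), with 1 point per library and lines for the means, in the order SCC2, SCC1, LLC1. The sum is highest in SCC2 and lowest in SCC1, and the Anxa2 to S100a10 ratio of 1.12 to 1.14 in SCC2 lies below both other lines.

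Among the members of middle abundance, Anxa11 and Anxa7 were higher in both clones than in LLC1. Anxa11, which binds the calcium sensor encoded by Pdcd6 and tethers RNA granules to lysosomes, had 117, 118 and 119 FPKM in SCC2, 104, 103 and 105 FPKM in SCC1, and 97.8, 96.5 and 97.2 FPKM in LLC1. Its 3 lines did not overlap, with log2 differences from LLC1 of 0.28 ± 0.016 in SCC2 and 0.10 ± 0.016 in SCC1. The SCC1 value was 0.06 both with quantile normalization and with chromosome medians removed. Anxa7, also called synexin and known for aggregating secretory granules, had 38.5, 39.2 and 39.8 FPKM in SCC2, 39.2, 39.0 and 38.1 FPKM in SCC1, and 34.6, 34.1 and 31.7 FPKM in LLC1. SCC2 and SCC1 overlapped, and both lay above LLC1, by 0.22 ± 0.031 and 0.21 ± 0.031 on the log2 scale.

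Anxa4, a member studied mainly in epithelial cells, was likewise higher in both clones than in LLC1. It had 49.6, 50.1 and 49.9 FPKM in SCC2, 52.1, 49.6 and 53.0 FPKM in SCC1, and 39.4, 36.3 and 36.7 FPKM in LLC1. The clones overlapped each other and exceeded LLC1 by 0.40 ± 0.033 in SCC2 and 0.45 ± 0.033 in SCC1 on the log2 scale. Between the clones Anxa4 differed by -0.05 ± 0.033 in SCC2 against SCC1, and by 0.19 with the median of chromosome 6 removed. Anxa3 ran the opposite way, at 50.8, 50.8 and 50.8 FPKM in SCC2, 49.4, 50.2 and 50.6 FPKM in SCC1, and 59.0, 60.3 and 59.3 FPKM in LLC1. Both clones were below LLC1, by -0.23 ± 0.019 in SCC2 and -0.25 ± 0.019 in SCC1. The clones themselves differed in Anxa3 by only 0.02 ± 0.019. In level, Anxa4 and Anxa3 overlapped in SCC1, whereas in LLC1 Anxa3 stood clear of Anxa4.

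Anxa6 had the widest range of all members. It had 4.97, 4.80 and 4.24 FPKM in SCC2, 0.598, 0.525 and 0.738 FPKM in SCC1, and 12.4, 12.1 and 11.5 FPKM in LLC1. These values stand for 240, 239 and 209 fragments in SCC2, 31, 26 and 36 in SCC1, and 621, 588 and 527 in LLC1, so the SCC1 level is low but above the limit of 3 fragments that a count of 0 allows. No library of 1 line reached the values of another. The ratio of mean FPKM to LLC1 was 0.388 in SCC2 and 0.0515 in SCC1, which is 19.4-fold lower in SCC1, and SCC2 was 7.53-fold above SCC1. On the log2(FPKM + 1) scale, which understates the change of low genes, the differences were -1.20 ± 0.061 in SCC2 and -3.01 ± 0.061 in SCC1 against LLC1, and 1.81 ± 0.061 in SCC2 against SCC1. With a pseudocount of 0.1 the difference between the clones was 2.73. Counted from the most negative of 10519 tested genes, Anxa6 ranked 4 in SCC1 and 91 in SCC2. Anxa6 was the lone member with a 2-fold or larger difference from LLC1 in either clone.

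Anxa6 is the longest member, with 26 exons and a coding length of 2019 bases for 673 residues in GENCODE vM21. The other annexins here have 12 to 15 exons and 319 to 503 residues, and S100a10 has 3 exons and 97 residues. The Anxa6 gene lies on chromosome 11 from 54979108 to 55033445 on the minus strand. Chromosome 11 genes as a whole had median log2 differences of -0.04 in SCC2 and 0.17 in SCC1 against LLC1, so the Anxa6 differences ran against the chromosome median in SCC1.

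Of the 4 nearest tested and named genes beside Anxa6, none had a log2(FPKM + 1) difference as low as that of Anxa6 in either clone. Tnip1, an inhibitor of NF-kappa-B signalling 16 kb away, fell by 0.25 on the log2 scale in SCC2 against LLC1 (limma adjusted p = 5.7e-05) and differed by -0.05 in SCC1 (limma adjusted p = 0.232). With chromosome medians removed, the Tnip1 difference in SCC1 was -0.21 and was called (limma adjusted p = 0.00021). Gm2a, the GM2 ganglioside activator 64.5 kb away, fell by 0.97 in SCC2 (limma adjusted p = 7e-08) and differed by 0.09 in SCC1 (limma adjusted p = 0.197). As a ratio of mean FPKM to LLC1, however, Gm2a at 0.340 in SCC2 was lower than Anxa6 at 0.388. Hint1, 108 kb away, rose by 0.11 in SCC2 and by 0.30 in SCC1 (limma adjusted p = 0.00083 and 2.3e-07), although the SCC2 call of Hint1 was lost with quantile normalization, at 0.02 (limma adjusted p = 0.592). Slc36a1, an amino acid transporter 171 kb away, differed by -0.08 in SCC2 (limma adjusted p = 0.145) and by 0.13 in SCC1 (limma adjusted p = 0.0167). The Slc36a1 call in SCC1 was lost without LLC1 replicate 1 (0.12, limma adjusted p = 0.0628), LLC1 replicate 2 (0.12, 0.0562), SCC1 replicate 1 (0.12, 0.0551) or SCC1 replicate 2 (0.12, 0.0578), and with chromosome medians removed it changed sign to -0.03.

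A window of the 10 tested genes on each side of Anxa6, chosen after the values were seen, gave 6 of 20 called higher and 6 lower in SCC2 against LLC1, with a median log2 difference of 0.03. In SCC1 against LLC1, 15 were called higher and 2 lower, with a median of 0.23, where the median of chromosome 11 was 0.17. Of all genes, 34.7% were called higher and 32.9% lower in SCC2, and 39.2% and 30.9% in SCC1. Sparc, a matricellular protein in that window named here after its values were seen, had 122 FPKM in SCC2, 69.2 FPKM in SCC1 and 183 FPKM in LLC1. Its log2 differences from LLC1 were -0.58 in SCC2 and -1.39 in SCC1.

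**Figure D3:**
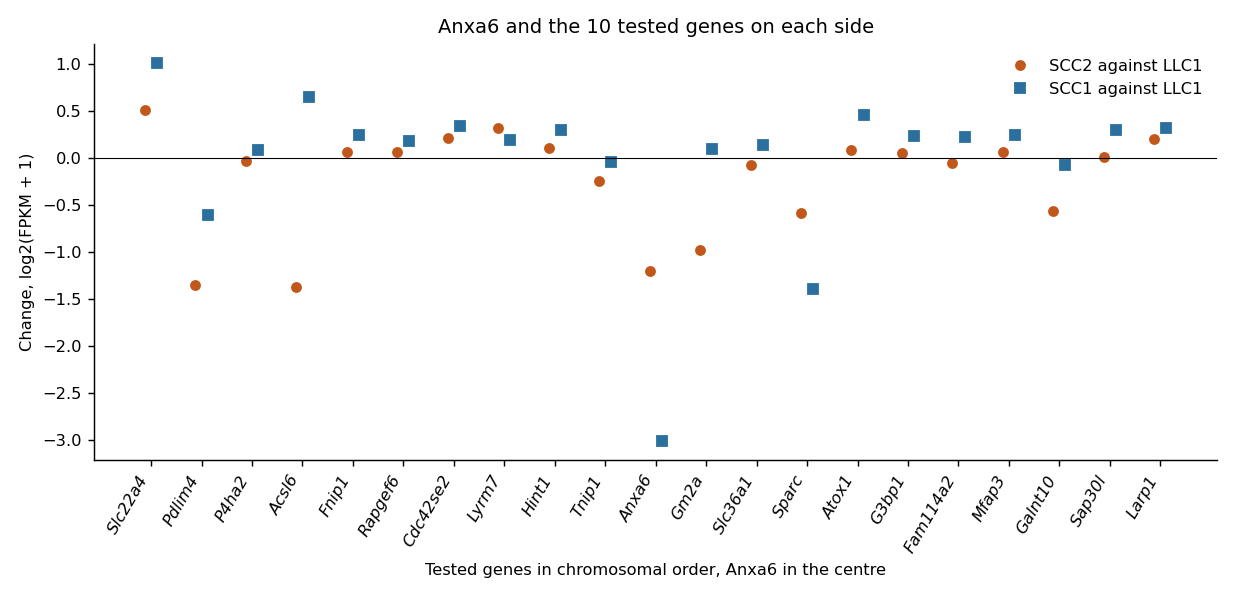
Log2 differences of Anxa6 and the 10 tested genes on each side of it, ordered along chromosome 11, for SCC2 against LLC1 and SCC1 against LLC1; points are limma estimates. Anxa6 at -3.01 is the lowest gene of its window in SCC1, followed by Sparc at -1.39, whereas in SCC2 some genes farther away lie below the -1.20 of Anxa6.

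Genes with the profile closest to Anxa6 over the 9 libraries were Cthrc1, Plod1, Ogn, Fbn1 and Mpdz. Likeness was the root mean square difference between centred log2(FPKM + 1) profiles, at 0.308 for Cthrc1, 0.355 for Plod1, 0.367 for Ogn, 0.384 for Fbn1 and 0.415 for Mpdz. Cthrc1, Ogn and Fbn1 encode extracellular matrix proteins, Plod1 a collagen lysyl hydroxylase and Mpdz a multi-PDZ scaffold protein. Each was lowest in SCC1 and highest in LLC1, and by construction of the search this is what the measure picks.

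Anxa8, a member of late endosomes, had the lowest mean of the members in all 3 lines. It had 1.19, 0.772 and 1.14 FPKM in SCC2, 0.514, 0.598 and 0.364 FPKM in SCC1, and 0.830, 0.549 and 1.26 FPKM in LLC1, from 12 to 39 fragments per library. The LLC1 libraries overlapped those of both clones, while SCC2 lay above SCC1 in all libraries. Anxa8 met the filter of 1 FPKM in 3 libraries through SCC2 replicates 1 and 3 and LLC1 replicate 3 alone. The filter thus favoured a lower level in SCC1. Its log2 differences were 0.13 ± 0.126 in SCC2 and -0.32 ± 0.126 in SCC1 against LLC1, and 0.45 ± 0.126 in SCC2 against SCC1. Under quantile normalization the SCC1 difference changed sign to 0.02 and the SCC2 difference was 0.43. Without LLC1 replicate 2 the SCC2 difference was -0.01, and without SCC2 replicate 2 it was 0.22. In SCC1 its range overlapped that of Anxa6. Its gene overlaps A630023A22Rik in the RefSeq annotation, and no source used here gives the strand setting of the counting, so the level is uncertain. A630023A22Rik rose by 0.37 in SCC1 against LLC1 (limma adjusted p = 0.000949), opposite in sign to Anxa8. The other near tested genes lie 136 to 639 kb away. Among them, Shld2 differed from LLC1 by -0.26 in SCC2 and 0.27 in SCC1, Mapk8 by 0.26 and 0.09, and Glud1 by -0.06 and -0.17 on the log2 scale. Without LLC1 replicate 2, the Shld2 difference in SCC2 was -0.13 and no longer called (limma adjusted p = 0.0777), and it was also not called without SCC2 replicate 3 (-0.21, 0.0959). In SCC1, Shld2 was not called without LLC1 replicate 1 (0.21, limma adjusted p = 0.0872), LLC1 replicate 3 (0.20, 0.0914) or SCC1 replicate 1 (0.26, 0.0518). The profiles most like Anxa8 over the 9 libraries were those of Scaper, Rusc1 and Ccdc138, at root mean square differences of 0.121, 0.122 and 0.126.

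Over the 10 members, 7 were called higher and 2 lower in SCC2 against LLC1, where 34.7% of all genes were called higher and 32.9% lower. In SCC1 against LLC1, 3 were called higher and 6 lower, with 39.2% and 30.9% of all genes called in these directions. In SCC2 against SCC1, 7 were called higher, with 37.0% of all genes called so, and the other 3 (Anxa3, Anxa4 and Anxa7) were not called. The members' median log2 difference was 0.17, -0.27 and 0.39 in these 3 comparisons, and that of all tested genes 0.0075, 0.033 and -0.0029. Libraries of the 2 lines did not overlap for 9, 9 and 8 members, where 70.7%, 72.3% and 77.9% of all genes did not overlap. Anxa8, which met the filter through SCC2 and LLC1 libraries alone, is among those called lower in SCC1 against LLC1 and higher in SCC2 against SCC1. Since these contrasts served to choose the set, nothing is read from the counts.

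**Figure D4:**
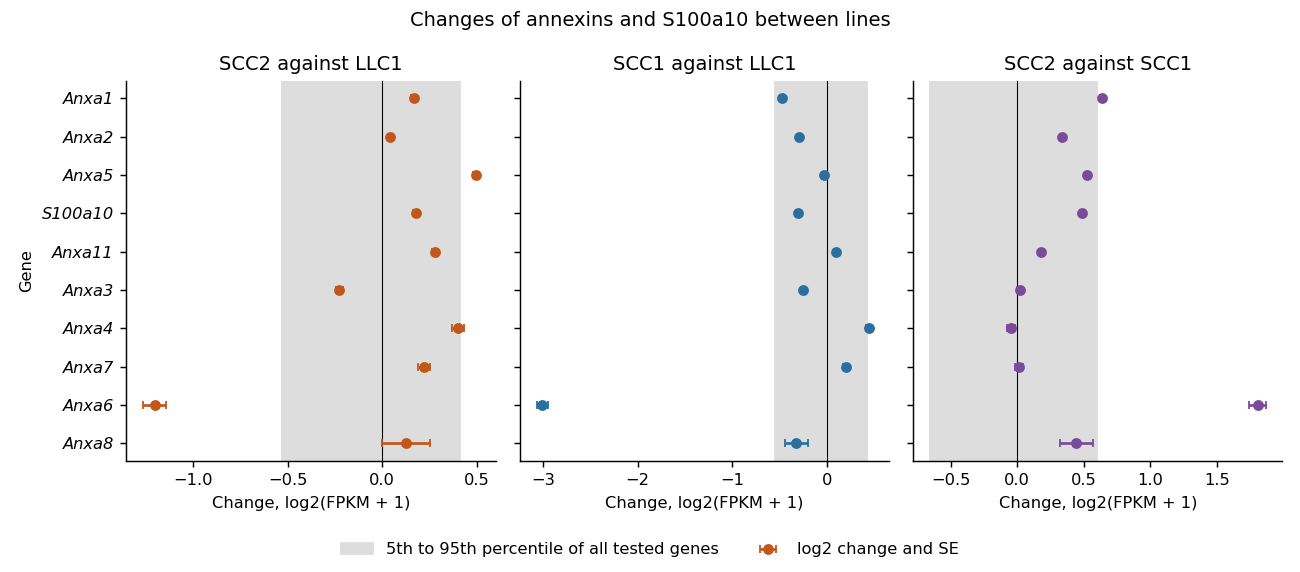
Log2(FPKM + 1) difference of each member with its SE in the 3 comparisons; the shaded band spans the 5th to 95th percentile of all tested genes. Anxa6 at -3.01 and -1.20 lies outside the band in both comparisons with LLC1. Anxa5 at 0.50 in SCC2 and Anxa4 at 0.45 in SCC1 also lie outside it, as do Anxa6 and Anxa1 between the clones. Against LLC1, Anxa1, Anxa2, Anxa5 and S100a10 are positive in SCC2 and negative in SCC1.

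The pathway lists below were compiled with earlier results of these data known. Over all lists, 69 of 85 tested genes (81.2%) were called in SCC2 against LLC1, 75 (88.2%) in SCC1 against LLC1 and 77 (90.6%) in SCC2 against SCC1. What sets these shares above the 67.6%, 70.1% and 76.3% of all genes was not tested. Of all genes, 34.7% were called higher and 32.9% lower in SCC2 against LLC1, 39.2% and 30.9% in SCC1 against LLC1, and 37.0% and 39.4% in SCC2 against SCC1. Of the other annexins, Anxa9 passed the filter, with 1.80 ± 0.153 FPKM in SCC2, 2.13 ± 0.102 FPKM in SCC1 and 1.97 ± 0.0713 FPKM in LLC1 (SD, n = 3 each). Anxa9 was lower in SCC2 than in SCC1 by -0.16 on the log2 scale (limma adjusted p = 0.0161), a call lost without SCC1 replicate 3 (-0.13, adjusted p = 0.0641) or SCC2 replicate 3 (-0.12, adjusted p = 0.0725). Anxa13 was seen as 1 fragment in 1 SCC2 library.

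The other S100 genes are relatives of S100a10 that bind calcium. Of 15 listed, 12 were in the table and 7 were tested, all on chromosome 3. In SCC2 against LLC1, 3 rose and 4 fell, with a median of -0.11. In SCC1 against LLC1, 6 fell and S100a3 did not pass, with a median of -0.33, where 30.9% of all genes were called lower. In SCC2 against SCC1, 5 were higher and 1 lower, where 37.0% of all genes were called higher. S100a4, a protein tied to cell motility, had 1639.8 ± 15.3 FPKM in SCC2, 1127 ± 19.2 FPKM in SCC1 and 1301 ± 18.2 FPKM in LLC1, a rise of 0.33 in SCC2 and a fall by 0.21 in SCC1 (limma adjusted p = 9.1e-09 and 4.2e-07). S100a6, which binds Anxa11, had 1633 ± 27.3 FPKM in SCC2, 1250.3 ± 21.4 FPKM in SCC1 and 1774 ± 19.0 FPKM in LLC1 (SD, n = 3 each). Its fall was by 0.12 in SCC2 and by 0.50 in SCC1 against LLC1 (limma adjusted p = 6.4e-05 and 3.4e-10), though with quantile normalization the SCC2 difference was 0.01. S100a11, a partner of Anxa1, had 662 ± 19.0 FPKM in SCC2, 543 ± 10.2 FPKM in SCC1 and 712 ± 15.6 FPKM in LLC1, and fell in SCC1 by 0.39 (limma adjusted p = 4.5e-08). S100a1 was higher in SCC2 and lower in SCC1 than in LLC1, by 0.20 and -0.19 (limma adjusted p = 0.000506 and 0.000855). S100a3 rose by 0.44 in SCC2 and differed by -0.01 in SCC1 against LLC1, S100a7a fell in both clones by 0.90 and 0.66, and S100a13 fell by 0.23 in SCC2 and 0.33 in SCC1, all on the log2 scale. S100a7a had 1.95 to 2.46 FPKM in LLC1 and at most 0.806 FPKM in SCC2 and 1.14 FPKM in SCC1. It thus needed LLC1 to meet the filter on low values, which favoured its falls. The S100a13 call in SCC2 was lost without LLC1 replicate 3 (log2 difference -0.16, limma adjusted p = 0.162), SCC1 replicate 2 (-0.23, 0.0518), SCC2 replicate 2 (-0.18, 0.137) or SCC2 replicate 3 (-0.25, 0.0623). The difference of S100a7a between the clones, -0.24 in SCC2 against SCC1, lost its call without SCC1 replicate 1 (-0.18, limma adjusted p = 0.109), SCC1 replicate 2 (-0.22, 0.0780) or SCC2 replicate 3 (-0.16, 0.128).

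Of 14 tested binding partners and receptors, 6 rose and 4 fell in SCC2 against LLC1, 7 rose and 5 fell in SCC1 against LLC1, and 7 were higher and 4 lower in SCC2 than in SCC1. Called genes were 71.4%, 85.7% and 78.6% of this list in the same order, against 67.6%, 70.1% and 76.3% of all genes. Plat, the tissue-type plasminogen activator that the Anxa2 complex binds, had 18.0, 18.1 and 18.6 FPKM in SCC2, 5.54, 6.17 and 6.44 FPKM in SCC1, and 16.7, 17.9 and 17.2 FPKM in LLC1. Plat fell by 1.38 in SCC1 (limma adjusted p = 3.2e-10) and differed by 0.07 in SCC2 (limma adjusted p = 0.169). Pdcd6, the calcium sensor that binds Anxa7 and Anxa11, rose in both clones, at 82.7 ± 1.61 FPKM in SCC2, 59.2 ± 1.94 FPKM in SCC1 and 51.0 ± 0.988 FPKM in LLC1 (SD, n = 3 each). Its log2 differences from LLC1 were 0.69 in SCC2 and 0.21 in SCC1, where the medians of chromosome 13 were 0.35 and 0.10. Tgm2, a transglutaminase, fell by 0.80 in SCC2 (limma adjusted p = 7.6e-06), and Dysf, the membrane repair protein dysferlin, fell by 0.60 in SCC2 and 0.36 in SCC1 (limma adjusted p = 6.7e-06 and 0.000335). Dysf met the filter on low values through LLC1 alone, at 1.07 to 1.12 FPKM there and 0.351 to 0.784 FPKM in the clones. The filter thus favoured its falls, which are among those counted above, and its p-values are a description only. The Anxa1 receptor genes Fpr1 and Fpr2 had mean levels of at most 0.0405 FPKM in any line and were not tested.

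Among 19 tested genes of membrane repair and calcium-dependent membrane binding, 11 rose and 6 fell in SCC2 against LLC1, and 10 rose and 7 fell in SCC1. In SCC2 against SCC1, 11 were higher and 7 lower. Called genes were 89.5%, 89.5% and 94.7% of this list in the same order, against 67.6%, 70.1% and 76.3% of all genes. Ehd2, a membrane-shaping ATPase of caveolae, had 93.1 ± 1.07 FPKM in SCC2, 56.6 ± 0.777 FPKM in SCC1 and 79.0 ± 0.118 FPKM in LLC1. Esyt1, a tether between endoplasmic reticulum and plasma membrane, had 21.7 ± 0.511 FPKM in SCC2, 9.70 ± 0.428 FPKM in SCC1 and 16.1 ± 0.868 FPKM in LLC1. Smpd1, the acid sphingomyelinase, had 11 ± 0.413 FPKM in SCC2, 6.57 ± 0.499 FPKM in SCC1 and 8.27 ± 0.527 FPKM in LLC1. These 3 genes were higher in SCC2 and lower in SCC1 than in LLC1, with limma adjusted p of at most 0.00049 in each of those comparisons. Fer1l6, a ferlin relative of dysferlin, ran the other way, at 2.87 ± 0.0395 FPKM in SCC2, 11.3 ± 0.228 FPKM in SCC1 and 5.22 ± 0.146 FPKM in LLC1 (SD, n = 3 each).

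Genes for the exposure and recognition of phosphatidylserine, the lipid that Anxa5 binds, were tested for 16 members of the list. In SCC2 against LLC1, 3 rose and 11 fell, and in SCC1 against LLC1, 5 rose and 9 fell, where 32.9% and 30.9% of all genes were called lower. Between the clones, 8 were higher and 8 lower in SCC2. The median log2 difference was -0.18 in SCC2 and -0.16 in SCC1 against LLC1. Plscr1, a scramblase family member, had 36.9 ± 0.930 FPKM in SCC2, 63.0 ± 0.591 FPKM in SCC1 and 56.1 ± 0.943 FPKM in LLC1. Plscr4 fell by 0.39 in SCC2 and 1.0 in SCC1, and Plscr2 by 0.95 and 0.79 (limma adjusted p of at most 1.4e-05 in each). Gas6, a bridging ligand between phosphatidylserine and its receptor kinases, was represented by 12, 16 and 18 fragments in SCC2, 1, 0 and 0 in SCC1, and 64, 73 and 60 in LLC1. Plscr2 and Gas6 met the filter on low values through LLC1 alone, at 1.57 to 1.59 and 1.32 to 1.55 FPKM there. In the clones Plscr2 had at most 0.548 FPKM and Gas6 at most 0.376 FPKM. The filter thus favoured their falls, which are among those counted above.

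Anxa1 was first described as an inhibitor of phospholipase A2. In the list of phospholipase A2 and eicosanoid synthesis genes, 14 were tested, with 5 higher and 6 lower in SCC2 against LLC1, 6 higher and 6 lower in SCC1 against LLC1, and 4 higher and 8 lower in SCC2 against SCC1. Called genes were 78.6%, 85.7% and 85.7% of this list in the same order, against 67.6%, 70.1% and 76.3% of all genes. Pla2g6, a calcium-independent phospholipase A2, had 5.81 ± 0.0706 FPKM in SCC2, 13.5 ± 0.429 FPKM in SCC1 and 10.8 ± 0.170 FPKM in LLC1. Ptgs2, the inducible prostaglandin synthase, had 18.8 ± 0.0836 FPKM in SCC2, 31.2 ± 0.145 FPKM in SCC1 and 16.8 ± 1.08 FPKM in LLC1, a rise of 0.86 in SCC1 (limma adjusted p = 2.9e-09). The leukotriene genes Alox5ap and Ltc4s fell in both clones, by 1.15 and 0.85 in SCC2 and by 0.76 and 0.87 in SCC1 on the log2 scale. Alox5ap had 1.85 to 2.36 FPKM in LLC1 and at most 0.491 FPKM in SCC2 and 1.025 FPKM in SCC1. It thus needed LLC1 to meet the filter on low values, which favoured its falls.

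Glucocorticoids induce Anxa1 in many cells, and of 14 tested genes of the glucocorticoid receptor and its targets, 2 rose and 8 fell in SCC2 against LLC1. These called genes are 71.4% of the list, near the 67.6% of all genes. In SCC1 against LLC1, 5 rose and 9 fell, and in SCC2 against SCC1, 7 were higher and 6 lower. Tsc22d3, the glucocorticoid-induced leucine zipper, had 7.97 ± 0.438 FPKM in SCC2, 3.91 ± 0.321 FPKM in SCC1 and 5.82 ± 0.129 FPKM in LLC1 (SD, n = 3 each). Its line order was that of Anxa1, an order that the other named genes of the list, Errfi1, Cebpd and Cebpb, did not share. A part of glucocorticoids in the Anxa1 levels was not tested. Errfi1, a feedback inhibitor of EGFR, fell by 0.53 in SCC2 and 0.89 in SCC1 (limma adjusted p = 7.2e-09 and 8.5e-11). Cebpd fell by 0.73 in SCC1 (limma adjusted p = 3.1e-06), whereas Cebpb, another C/EBP factor, had 53.6 ± 0.728 FPKM in SCC2, 84.8 ± 1.31 FPKM in SCC1 and 75 ± 2.62 FPKM in LLC1. Cebpd had 0.342 to 0.629 FPKM in SCC1, and met the filter on low values through SCC2 and LLC1 libraries alone. The filter thus favoured a lower level of Cebpd in SCC1, and its fall there is among those counted above.

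**Figure D5:**
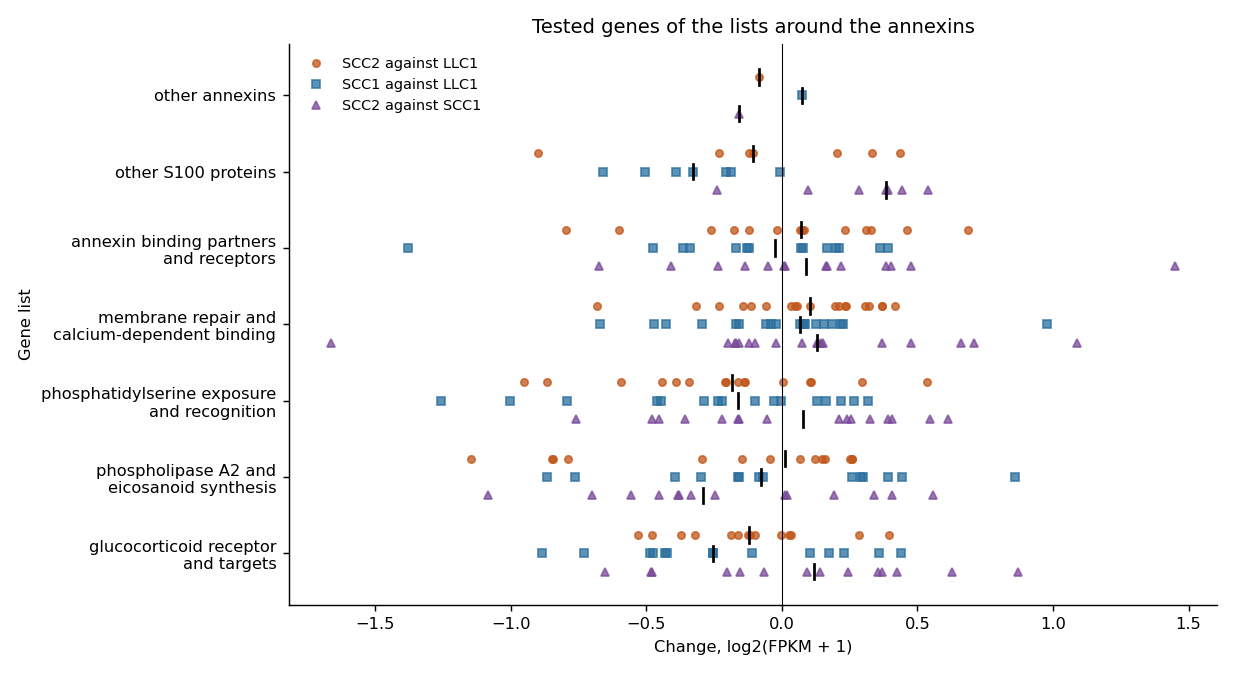
Log2 differences of every tested gene of each pathway list in the 3 comparisons; each point is 1 gene and the bar marks the list median. The other S100 genes have a median of -0.33 in SCC1 against LLC1 and 0.39 in SCC2 against SCC1.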

How the data were processed

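RNA-seq values of 9 mouse libraries, 3 each of SCC2, SCC1 and LLC1, were taken as deposited in FPKM. Per the series' design text, the authors trimmed reads with Trimmomatic, aligned them with hisat2 and computed FPKM with cufflinks; GRCm38 and mm10 are named in the submitters' processing notes, and the sources used here do not give the annotation or any use of strand in counting. The labels name a SMARTER library kit and the design text a TruSeq stranded kit.

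All 12270 genes above 0 in every library gave whole fragments within 0.001, so depths were worked back from the deposited FPKM. A count of 0 allows up to 3 fragments, which is 0.0447 to 0.0506 FPKM for a gene of median length, and this limit covers counting error only. FPKM shows shares of all message, so a shift of abundant genes moves the others.

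The 10519 genes reaching an FPKM of 1 in 3 or more libraries were fitted on log2(FPKM + 1) over all 9 libraries with limma 3.58.1 (trend and robust, R 4.3.3), p-values adjusted by Benjamini-Hochberg across these genes and calls at 0.05; no covariate entered. The scripts were tested on simulated data. Members and lists were chosen with earlier results of these data known. Named were all members, the tested other annexins and S100 genes, up to 4 called genes per further list with the largest difference, and, for Anxa6 and Anxa8, whose line means span 2-fold or more, the genes most like each (5 and 3) and the 2 nearest tested genes on each side; predicted names were left out. Alternatives were another pseudocount, filters, scalings and models, a replicate block, and leaving out each library. RefSeq (GRCm38.p6) gave promoters and neighbours, and 15665 of 15768 symbols matched it; GENCODE vM21 gave gene positions.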

Additional observations from a re-analysis of the deposited data

Results flagged for a closer look

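Some genes differed from LLC1 in opposite directions in the 2 clones, with every library of one clone above all LLC1 libraries and every library of the other clone below them. Among the members these were Anxa1 (log2 difference 0.17 in SCC2 and -0.47 in SCC1 against LLC1), Anxa2 (0.043 and -0.29), Anxa5 (0.50 and -0.030) and S100a10 (0.18 and -0.31). The clones differed by 0.64 in Anxa1, 0.34 in Anxa2, 0.53 in Anxa5 and 0.49 in S100a10 (SCC2 against SCC1). All 4 are among the members called higher in that comparison, and since they were chosen from these contrasts the call is a description and no independent test. Libraries did not overlap those of LLC1 for 70.7% of all genes in SCC2 and 72.3% in SCC1. The share of all genes set in opposite directions was not worked out, so nothing is read from how many are listed here.

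Further genes were set in opposite directions, and each was called by limma in SCC2 against SCC1. The rule that picked them already sets SCC2 and SCC1 apart, so these calls are a description and no independent test. In SCC2 against LLC1, Plat (limma adjusted p = 0.169) and Slc36a1 (limma adjusted p = 0.145) were not called. S100a1 (0.20 in SCC2 and -0.19 in SCC1), S100a4 (0.33 and -0.21), Plat (0.074 and -1.38), Esyt1 (0.42 and -0.67), Ehd2 (0.23 and -0.47), Smpd1 (0.37 and -0.29) and Tsc22d3 (0.39 and -0.48) were above LLC1 in SCC2 and below it in SCC1. Fer1l6 (-0.68 and 0.98), Plscr1 (-0.59 and 0.16), Pla2g6 (-0.79 and 0.30), Cebpb (-0.48 and 0.18), Slc36a1 (-0.076 and 0.13) and Shld2, a neighbour of Anxa8 (-0.26 and 0.27), ran the other way. The weakest of these comparisons between clones were Slc36a1 (-0.21, limma adjusted p = 0.00092) and Shld2 (-0.53, limma adjusted p = 0.00024). The opposite signs of Shld2 held, but the sizes of its differences varied with the 3 LLC1 libraries, which spread widely. Without LLC1 replicate 2 its SCC2 difference was -0.13, and without LLC1 replicate 3 its SCC1 difference was 0.20. The Slc36a1 difference between the clones was 0.0030 once chromosome medians were removed.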

How the results depend on the processing

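Under 18 alternatives, all 162 recomputed counts of called genes, list genes and members stayed within 1.5 times the reported count. Genes called ranged over 5774 to 7879 in SCC2 against LLC1, 6005 to 8157 in SCC1 against LLC1 and 6474 to 8849 in SCC2 against SCC1; members called ranged over 8 to 10, 8 to 10 and 6 to 8, and list genes over 58 to 71, 63 to 78 and 64 to 77. Quantile normalization turned the sign of Anxa8 in SCC1 against LLC1 (0.024) and of S100a6 in SCC2 against LLC1 (0.0084). Removing chromosome medians turned Slc36a1 in SCC1 against LLC1 (-0.032) and, in SCC2 against SCC1, Anxa4 (0.19), Ccdc138 (-0.017), Tnip1 (0.015), Hint1 (0.025) and Slc36a1 (0.0030). The cause was not tested. Anxa2 in SCC2 against LLC1 lost its call without LLC1 replicate 3 (0.036), without SCC2 replicate 1 (0.040) and in limma without trend (0.043). Anxa8 in SCC1 against LLC1 lost it without LLC1 replicate 1 (-0.33), SCC1 replicate 1 (-0.33) or SCC1 replicate 3 (-0.26), without a filter and in limma without trend (both -0.32). Anxa5 in SCC1 against LLC1 gained a call with quantile normalization (-0.058) and median-of-ratios scaling (-0.047), and Anxa8 in SCC2 against LLC1 with quantile normalization (0.43); Anxa4 in SCC2 against SCC1 gained one together with its change of sign when chromosome medians were removed. That setting also moved Anxa2 in SCC2 against LLC1 to 0.20 and Anxa1 to 0.064, and the Anxa6 difference in SCC1 ranged over -4.27 to -2.95. Replicate numbers did not pair the libraries: deviations of same-numbered libraries correlated at -0.068 to 0.089, and in 2 of 9 comparisons of a library with the 3 libraries of another line the own number correlated best. With the replicate block, 7046, 7306 and 7962 genes were called in the 3 comparisons. Depth limits Anxa8 most, at 12 to 39 fragments per library.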
